A study of Mus musculus with 10 samples.

Results

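The genes described here are 6 of the 32285 measured genes: Hand1, Hand2, Hand2os1, Alx1, Alx4 and Cited1. They were chosen by name as genes linked to patterning of the distal jaw, and every one was found among the measured genes. Single cell RNA sequencing was carried out on wild type NMRI mouse embryos at embryonic days E11.5, E14.5 and E16.5. Whole mandibles were taken at the first stage and dissected lower incisor buds at the others, from embryos of several litters that were dissociated one sample at a time, and the labels call the tissue of every sample developing incisor. No group carried a transgene or received a treatment, and no age or genotype differed other than the stage. The labels list 4, 4 and 2 samples for the 3 stages, but each stage was read here as 1 pooled matrix in which the barcodes do not name an embryo. A stage is therefore 1 sample, cells of a stage are not replicates, and no test between stages or cell groups was possible.

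Hand1 and Hand2 are basic helix-loop-helix transcription factors that act in the distal, or ventral, part of the mandibular arch, where neural crest-derived mesenchyme responds to endothelin signalling from the epithelium through Dlx5 and Dlx6. Hand2os1 is a long noncoding RNA transcribed from the strand opposite to Hand2. Alx1 and Alx4 are homeobox factors of frontonasal and distal jaw mesenchyme, and Cited1 is a transcriptional co-activator without a DNA-binding domain that binds CBP and p300.

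In the GENCODE annotation of GRCm38 (release vM21), Hand1 (ENSMUSG00000037335) lies on chr11:57828705-57832818 on the minus strand and Alx1 (ENSMUSG00000036602) on chr10:102998707-103030215 on the minus strand. Alx4 (ENSMUSG00000040310) lies on chr2:93642384-93681339 on the plus strand and Cited1 (ENSMUSG00000051159) on chrX:102247381-102252181 on the minus strand. Hand2 (ENSMUSG00000038193) occupies chr8:57320983-57324633 on the plus strand, and Hand2os1 (ENSMUSG00000100510) occupies chr8:57281117-57324233 on the minus strand, so that the span of Hand2os1 covers most of Hand2. In the RefSeq models of GRCm38.p6 both genes start close to each other and run in opposite directions. The 123 bases between these starts, chr8:57320860-57320982, are shown on the plus strand because Hand2 and Hand2os1 followed each other through the cell groups described further on. Capitals mark the single match to CCAAT, searched on both strands and here read as its reverse complement, a match that 37.4% of the 32851 RefSeq promoter windows of 300 bases also held.
Hand2os1 to Hand2 interval: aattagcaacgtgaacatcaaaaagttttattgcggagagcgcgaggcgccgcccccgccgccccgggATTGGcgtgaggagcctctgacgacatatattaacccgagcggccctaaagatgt
The letters CANNTG, the general form of the sequence bound by basic helix-loop-helix factors, had 0 matches in this interval and were present in 72.3% of all promoter windows. The letters TAATTA, a core bound by many homeobox factors, also had 0 matches and were present in 5.29% of windows. The interval is shorter than these windows, and the 300-base window of Hand2 itself held 2 matches to CANNTG and 1 to TAATTA. These are letter matches only and say nothing of binding.

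After filtering, 17175 cells remained, of which 13160 were mesenchymal: 6005 of 6573 cells at E11.5, 4620 of 6091 cells at E14.5 and 2535 of 4511 cells at E16.5. The median number of unique molecular identifiers (UMIs, one per captured RNA molecule) per cell was between 3471 and 6260 by stage, and the barcodes of any stage pair overlapped by 13 to 17. Levels are given as CPM, the UMIs of a gene in a cell group scaled to the standard total of that unit, with a 95% exact Poisson interval, and shares of cells with an exact Clopper-Pearson interval. These intervals cover counting error only. No cluster at E11.5 was named epithelium or glia, so the epithelial comparison exists at E14.5 and E16.5 alone.

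The mesenchyme held nearly all transcripts of the 6 genes. At E11.5 between 97.6% and 98.8% of the UMIs of each gene lay in mesenchymal cells, which made up 91.4% of the cells. At E16.5, where mesenchyme was 56.2% of the cells, it held 95.6% of the Hand2, Hand2os1 and Alx1 UMIs and 95.8% of the Alx4 UMIs, while Cited1 (77.3% of 44 UMIs) and Hand1 (94.7% of 19 UMIs) rested on few counts. All 6 genes were at least 2-fold higher in E11.5 mesenchyme than in the other E11.5 cells, a call that 2.33% of the 6210 genes tested met in this direction and 5.67% in the other. The log2 ratio, with 10 CPM added to each level, was 1.32 for Hand1, 1.78 for Hand2, 2.04 for Hand2os1, 1.49 for Alx1, 1.35 for Alx4 and 1.65 for Cited1.

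Hand2 was present in mesenchyme at all 3 stages, as were Hand2os1, Alx1 and Alx4. The Hand2 level in mesenchyme was 166 CPM (162 to 169) at E11.5, 226 CPM (219 to 233) at E14.5 and 310 CPM (302 to 318) at E16.5, and a Hand2 UMI was found in 45.4%, 50.5% and 77.6% of mesenchymal cells. With every cell thinned to 2000 UMIs these shares were 24.4%, 35.1% and 44.5%, in the same order, after leaving out 594, 685 and 43 shallower mesenchymal cells. In incisor epithelium of the later stages Hand2 stood at 8.4 CPM and then 9.73 CPM, and in endothelium at 13.5 and 12.4 CPM, so that mesenchyme lay far outside their intervals. At E11.5 the order below mesenchyme was endothelium (51.6 CPM), immune cells (50.8 CPM), erythroid cells (47.7 CPM) and muscle (24.5 CPM), of which the first 3 overlapped in their intervals. The endothelial value rested on 221 cells with a median of 1668 UMIs. At the finer resolution of 0.8 endothelium was 56 cells with a median of 9220 UMIs and Hand2 at 8.01 CPM (2.94 to 17.4), which puts it last in the order. At E14.5 the order was erythroid cells (81.5 CPM), glia (24.4 CPM), endothelium (13.5 CPM), immune cells (10.3 CPM) and epithelium (8.4 CPM), and only the erythroid level stood clear of the others.

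Erythroid cells served as a cell type that should lack these genes. At E11.5, 14.4% of erythroid cells (median 5628 UMIs) held a Hand2 UMI, against 45.4% of mesenchymal cells (median 5696 UMIs). The erythroid group also carried RNA of the 9 mesenchymal marker genes: their summed level there was 31.2%, 43.0% and 26.2% of that in mesenchyme at the 3 stages in order. Hand2 in erythroid cells was 28.8%, 36.1% and 29.5% of its mesenchymal level. In epithelium the marker sum was 6.0% of the mesenchymal one at E14.5 and 5.56% of it at E16.5, and all 9 markers were above 0. The part of this RNA in the levels outside the mesenchyme was not tested, and no level outside the mesenchyme is read here as expression.

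**Figure D1:**
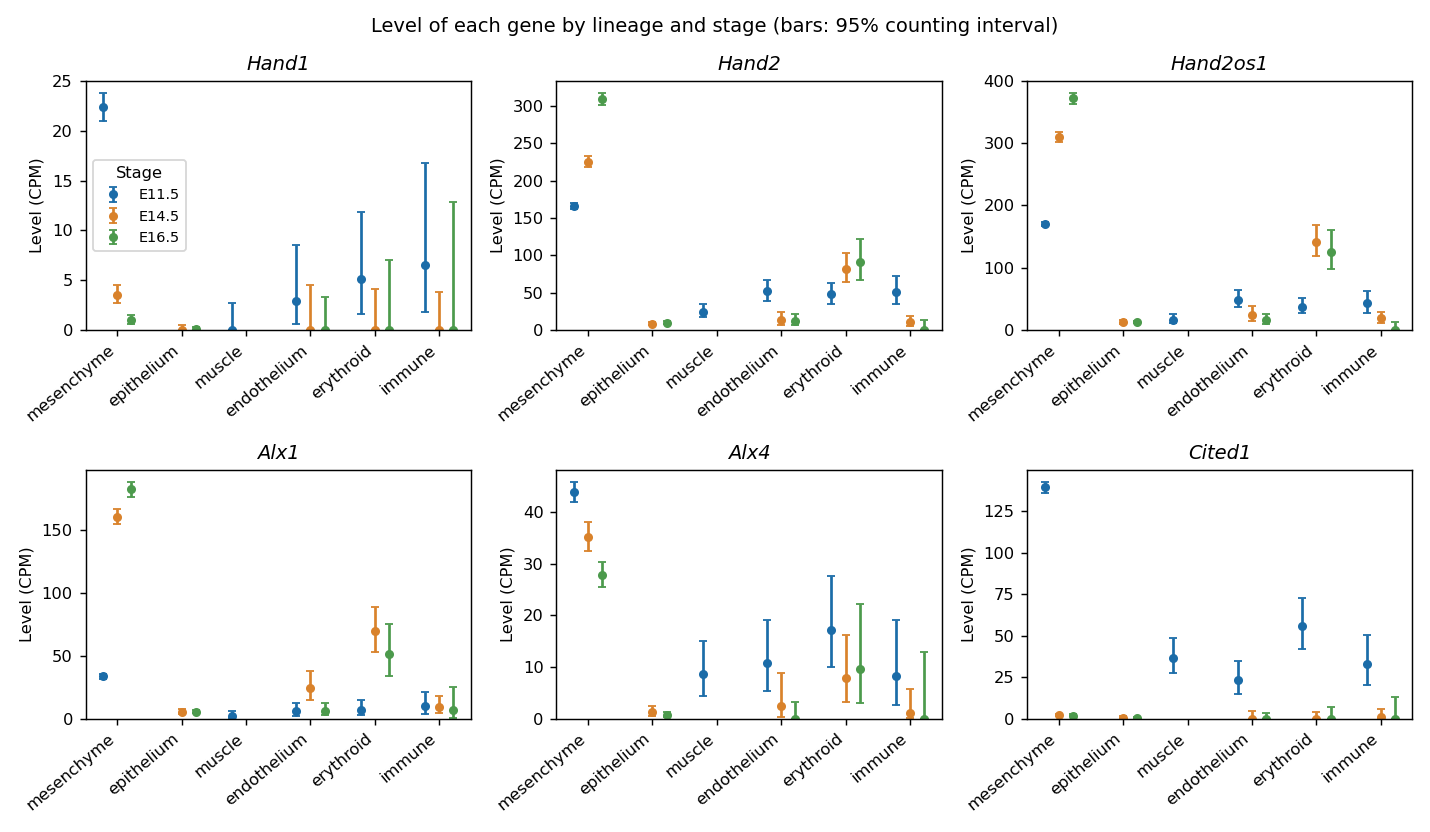
Level of each gene in CPM (vertical axis, linear, from 0) by lineage, with E11.5 in blue, E14.5 in orange and E16.5 in green; points are levels and bars 95% counting intervals, and the smaller glial and mural groups are not drawn. Mesenchyme is the highest lineage for the 6 genes at E11.5, and Cited1 drops from 139 CPM at E11.5 to 2.24 CPM at E14.5 while Alx1 goes from 33.5 to 160 and 182 CPM.

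Hand2os1 had the same order of stages as Hand2. It stood at 170 CPM (166 to 174) in mesenchyme at E11.5, 310 CPM (302 to 318) at E14.5 and 372 CPM (364 to 381) at E16.5, against 12.5 and 11.9 CPM in epithelium at the later stages. The number of Hand2os1 UMIs per Hand2 UMI was 1.03 (0.99 to 1.06) in E11.5 mesenchyme, 1.37 (1.32 to 1.43) in that of E14.5 and 1.2 (1.16 to 1.25) in that of E16.5. Within E16.5 the ratio ran from 0.97 in the cluster led by Smpd3 and Panx3 to 1.48 in the cluster led by Col8a1 and Smoc2. The 2 genes overlap on opposite strands, and how strand was used in counting is not given in the sources used here. Whether reads of 1 gene were counted for the other was not tested.

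Cited1 and Hand1 had their highest mesenchymal levels at E11.5, the only stage taken as whole mandible. Cited1 stood at 139 CPM (136 to 143) in E11.5 mesenchyme, 2.24 CPM (1.6 to 3.05) at E14.5 and 1.82 CPM (1.26 to 2.54) at E16.5, and the share of cells with a Cited1 UMI was 36.6%, 0.844% and 1.22%. Hand1 stood at 22.4 CPM (21.0 to 23.8) at E11.5, 3.53 CPM (2.71 to 4.51) at E14.5 and 0.96 CPM (0.57 to 1.52) at E16.5, with 7.33%, 1.21% and 0.631% of cells. In erythroid cells at E11.5 Cited1 was at 55.8 CPM and Hand1 at 5.07 CPM, both below mesenchyme. In E14.5 erythroid cells both genes had 0 UMIs, where 3 counts, taken as the limit that a count of 0 allows, would be 3.35 CPM.

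Alx1 went the opposite way between these stages. It stood at 33.5 CPM (31.8 to 35.3) in E11.5 mesenchyme, 160 CPM (155 to 166) at E14.5 and 182 CPM (176 to 188) at E16.5, and was found in 11.7%, 40.7% and 61.6% of cells, or 5.34%, 26.4% and 30.2% after thinning. Alx4 stood at 43.9 CPM (42.0 to 45.9), 35.2 CPM (32.5 to 38.1) and 27.9 CPM (25.6 to 30.4), a small difference in the direction of lower levels at the later stages. At E16.5 the Alx4 level was 0.73 CPM in epithelium, with 14 UMIs in 1757 cells.

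Between E11.5 and E14.5 mesenchyme, 1 member passed the 2-fold call upwards and 2 downwards. Alx1 was higher at E14.5 by 1.97 on the log2 scale (1.89 to 2.05), a call met by 4.91% of the 6187 genes tested. Cited1 differed by -3.61 (-3.69 to -3.51) and Hand1 by -1.26 (-1.36 to -1.14), a call met by 3.54% of genes. Hand2 (0.42), Hand2os1 (0.83) and Alx4 (-0.25) did not pass. The median of all genes tested was -0.18. Without the E11.5 cluster in which Cited1 was highest, Hand1 was at -0.92 and no longer passed, and Hand2os1 was at 1.26 and passed. This setting was chosen after seeing the data. Every member had its highest E11.5 level in that cluster, so leaving it out could only raise these ratios.

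Between E14.5 and E16.5, 4 members reached the minimum of 20 CPM and 0 of them passed the 2-fold call, which 2.19% of 6020 genes met upwards and 0.714% downwards. Hand2 was higher at E16.5 by 0.44, Hand2os1 by 0.26 and Alx1 by 0.17, and Alx4 differed by -0.25. Stage and tissue changed together between E11.5 and E14.5, from whole mandible to incisor bud, and the effects of stage and dissection cannot be told apart. The E11.5 matrix also held 0 UMIs of 4 Y-linked genes, against 1268 UMIs at E14.5 and 1977 UMIs at E16.5. Cited1 is X-linked. The 219 X-linked genes tested had a median log2 ratio of -0.16 between E11.5 and E14.5, beside -0.18 for 5964 autosomal genes. Of these X-linked genes, 17 were at least 2-fold lower at E14.5, a larger share than the 3.54% of all 6187 genes tested. Xist, the RNA of the inactive X chromosome, was at 935 CPM in mesenchyme at E11.5, 1318 CPM at E14.5 and 786 CPM at E16.5. The part of embryo sex in the Cited1 difference was not tested.

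Lists of further genes were set beside the members between E11.5 and E14.5 mesenchyme. There 4.91% of the 6187 genes tested were at least 2-fold higher at E14.5 and 3.54% at least 2-fold lower. Of the 10 proximal and maxillary factors tested, 6 were at least 2-fold lower at E14.5 and 1 was higher, with a list median of -1.64. The homeobox gene Barx1, which marks the proximal, molar-forming mesenchyme, went from 362 CPM to 4.53 CPM, and the nuclear receptor gene Nr2f1 from 260 CPM to 0.45 CPM. Dlx1, Nr2f2, Lhx6 and Meis2 were the other factors that were lower, and the Notch ligand gene Jag1 (5.20 to 44.6 CPM) was higher. Of the 7 distal mandible factors tested, 2 were higher and 1 lower, with a median of 0.63: Bmp4 went from 12.9 to 58.3 CPM and Pax3 from 28.7 to 87.4 CPM, while Gsc went from 108 to 9.01 CPM.

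Among the 6 tested genes of the endothelin axis, Mef2c (18.4 to 157 CPM) was higher and Dlx6 (a log2 ratio of -1.46, from 61.4 CPM) lower. The receptor gene Ednra was at 80.8 CPM at E11.5 and 63.2 CPM at E14.5. Of the 9 Hand partners and inhibitors tested, Twist1 (463 to 209 CPM) and Twist2 (58.8 to 14.4 CPM), basic helix-loop-helix factors that can pair with Hand proteins, were lower and 0 were higher. Of the 5 tested genes of the Cited family and its partners, Tfap2c (a log2 ratio of 1.40, from 12.8 CPM) was higher, and Cited2 was at 33.6 and 25.6 CPM. The 10 cell cycle genes had a median of -0.49 and 0 passed the call.

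**Figure D2:**
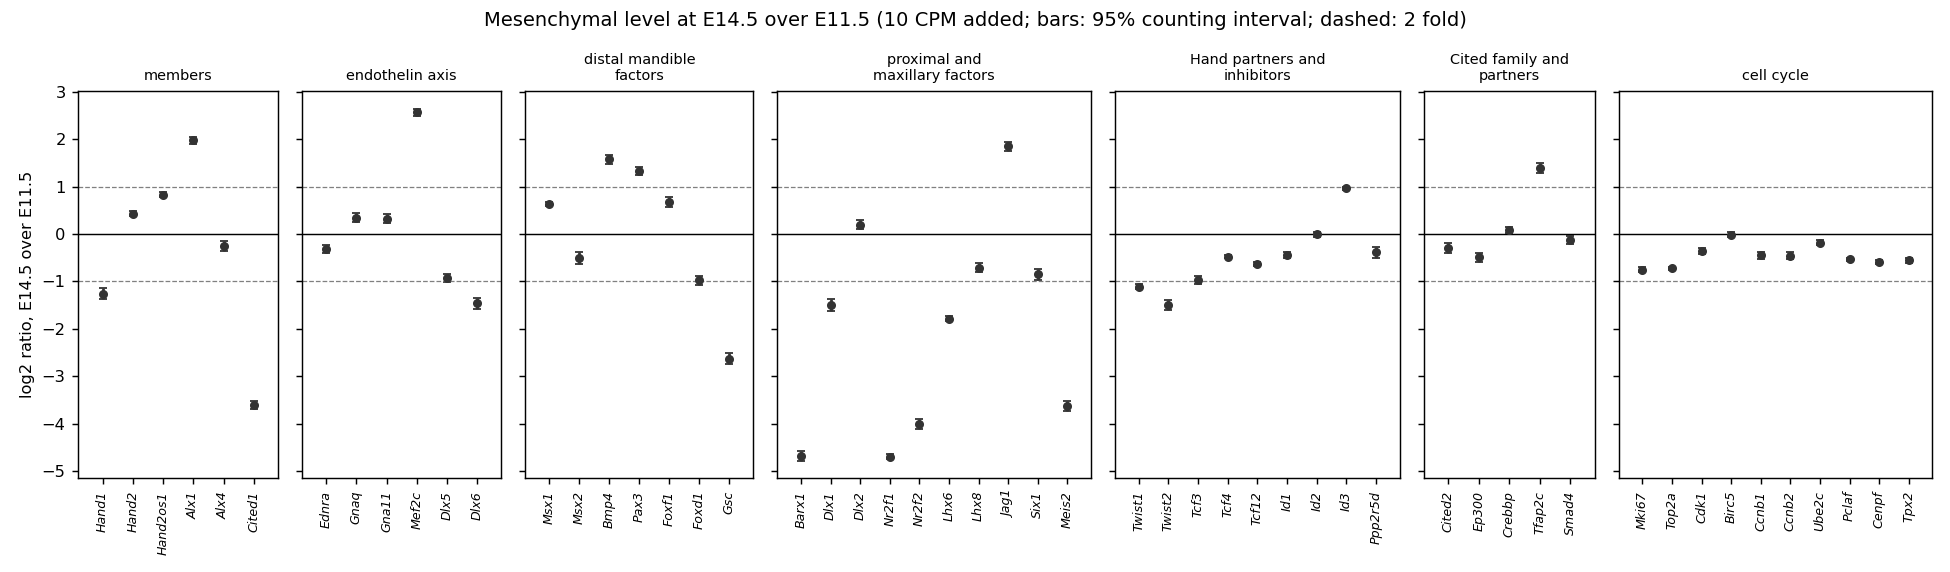
Log2 ratio of the mesenchymal level at E14.5 over E11.5 (vertical axis, 10 CPM added) for the members and the genes of each list that reached 20 CPM; points are ratios, bars 95% counting intervals and dashed lines the 2-fold call. Cited1 (-3.61) lies at the low end with Barx1, Nr2f1 and Meis2 of the proximal and maxillary list. Alx1 (1.97) lies near Jag1 and Mef2c at the high end.

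Between E14.5 and E16.5 each list but the Cited and cell cycle lists held genes past the call. Of all 6020 genes tested, 2.19% met it upwards and 0.714% downwards. In the endothelin list Dlx5 (49.1 to 145 CPM), Dlx3 (13.5 to 62.5 CPM) and Dlx4 (7.67 to 42.1 CPM) were higher among 7 tested. Of 7 distal factors Msx2 (a log2 ratio of 1.97, to 93.4 CPM) and Foxf1 (38.3 to 92.5 CPM) were higher and Pax3 (a log2 ratio of -1.91, from 87.4 CPM) was lower. Of 5 proximal factors Dlx1 (6.49 to 90.1 CPM) was higher, and of 10 Hand partners and inhibitors Twist2 (14.4 to 59.1 CPM) and Id1 (132 to 304 CPM) were higher. In the Cited list 0 of 6 genes passed.

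The members were spread unequally over the E11.5 mesenchyme, which fell into 4 clusters made without the members or the list genes. Cluster 1 (2227 cells) was led by Msx1, histone genes and Pax3, cluster 2 (1466 cells) by Osr2, Shox2 and Cdh6, cluster 3 (1218 cells, median 2100 UMIs) by mitochondrial genes, and cluster 4 (1094 cells) by Plagl1, Cited1 and Foxf1. Since the clusters come from the same cells, levels between them are a description.

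In cluster 4 each of the 6 genes was at its highest E11.5 level. Hand2 was at 324 CPM in cluster 4, 148 CPM in cluster 3, 140 CPM in cluster 1 and 93.6 CPM in cluster 2, and clusters 1 and 3 overlapped in their intervals. Cited1 was at 425 CPM in cluster 4, 138 CPM in cluster 3, 70.4 CPM in cluster 1 and 55.8 CPM in cluster 2. Hand1 was at 51.5, 13.0, 19.2 and 7.72 CPM in clusters 4, 3, 1 and 2. Cluster 4 thus held 57.6% of the mesenchymal Cited1 UMIs, 43.4% of the Hand1 UMIs and 37.0% of the Hand2 UMIs with 18.9% of all UMIs. For the Alx genes these shares were 33.4% of the Alx1 UMIs, near the Hand2 share, and 28.3% of the Alx4 UMIs. Alx1 was at 59.3, 33.0, 21.0 and 16.2 CPM and Alx4 at 65.9, 43.9, 39.8 and 25.7 CPM in clusters 4, 1, 3 and 2, and cluster 1 held 51.7% of the Alx1 UMIs with 52.5% of all UMIs.

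At a finer resolution (0.8) a group of 255 E11.5 mesenchymal cells had the members at their lowest among the mesenchymal groups. It was led by Osr2, Shox2 and Cdh6, had a median of 8379 UMIs, and Hand2 was at 12.0 CPM (8.10 to 17.1) with 30 UMIs. Hand2os1 was at 6.4 CPM, Cited1 at 13.6 CPM, Alx4 at 4.4 CPM, Alx1 at 2.0 CPM and Hand1 at 1.2 CPM. These levels lay below those of E11.5 erythroid cells. For Hand1 (3 UMIs) and Alx1 (5 UMIs) the intervals of the 2 groups overlapped. In the same cells Barx1 was at 528 CPM, Lhx8 at 179 CPM and Prrx1 at 851 CPM, and Foxf1 and Pax3 were at 0.4 CPM each.

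At the same resolution a group of 1199 E11.5 cells with Msx1 at 432 CPM and Pax3 at 71.9 CPM had Alx1 at 53.5 CPM and Cited1 at 72.6 CPM. The groups of 596 and 515 cells that had Plagl1 and Cited1 among their leading genes, with Foxf1 at 59.2 and 82.0 CPM, had Alx1 at 64.6 and 60.4 CPM and Cited1 at 422 and 420 CPM. Alx1 was thus near the same level in Msx1-rich and Foxf1-rich cells, and Cited1 was high in the latter.

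At the later stages the mesenchymal clusters differed less in Hand2 and Alx1. At E14.5 Hand2 ran from 155 CPM in cluster 2, led by Crym, Egr3 and Fgf3, to 337 CPM in cluster 5, led by Dlk1 and Col8a1, and 349 CPM in cluster 6, led by Osr1 and Ebf2. Alx1 ran from 123 CPM in cluster 2 to 244 CPM in cluster 5. Alx4 ran from 22.7 CPM in cluster 2 to 80.1 CPM in cluster 6. The few Hand1 and Cited1 UMIs of this stage lay mostly in clusters 5 and 6. There Hand1 was at 8.49 and 18.0 CPM and Cited1 at 7.89 and 8.66 CPM, against at most 3.28 and 1.63 CPM in the other 3 clusters. Hand1 in cluster 6 rested on 25 UMIs (11.7 to 26.6 CPM). Its interval overlapped that of E11.5 cluster 1 (17.4 to 21.0 CPM) and lay above that of E11.5 cluster 2 (6.03 to 9.73 CPM). At E16.5 Hand2 was at 390 CPM in the cluster led by Col8a1, 289 CPM in that led by Smpd3 and 260 CPM in that led by Sfrp4, and Alx1 at 206, 132 and 230 CPM.

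**Figure D3:**
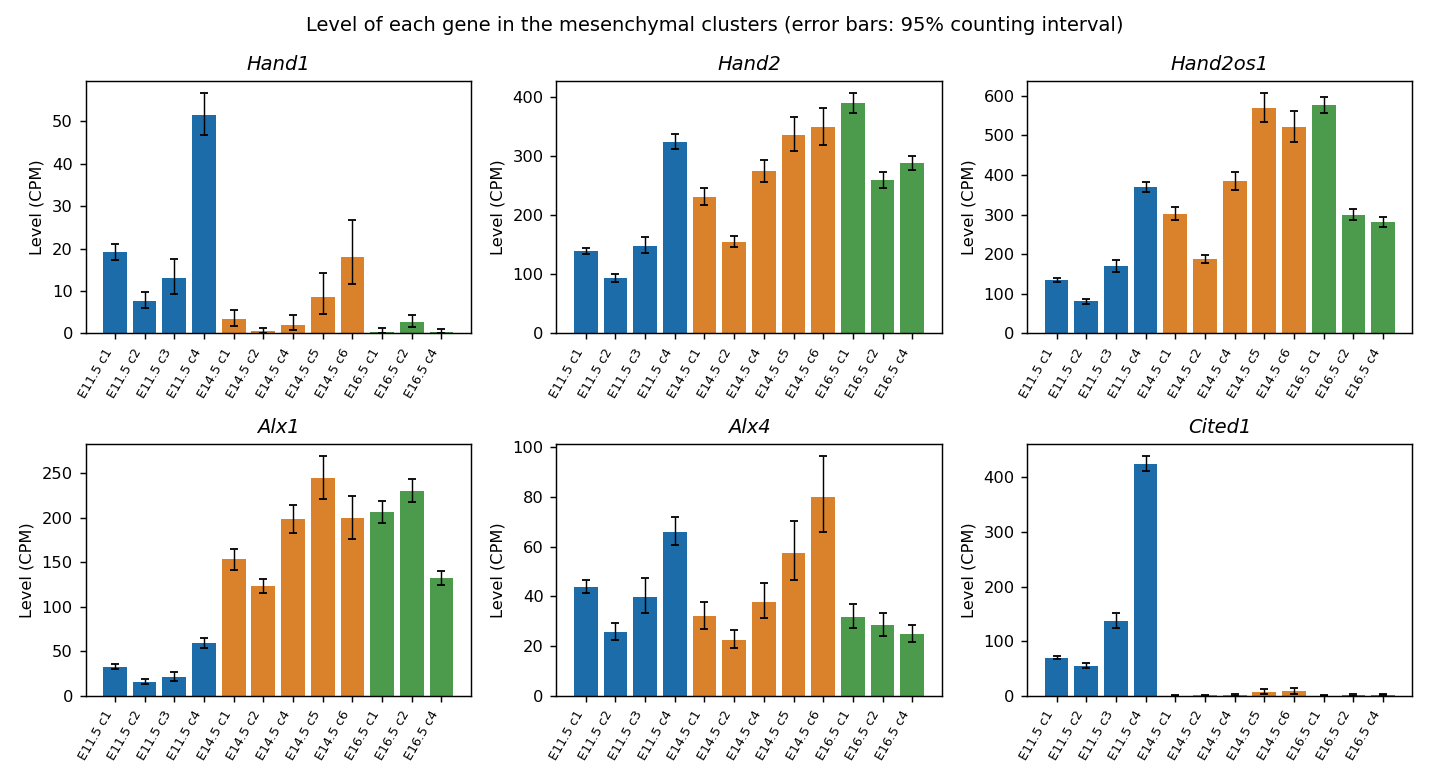
Level of each gene in CPM (vertical axis, from 0) in the 12 mesenchymal clusters, with E11.5 bars in blue, E14.5 in orange and E16.5 in green; c and a number name the cluster, and error bars are 95% counting intervals. E11.5 cluster 4 is the highest E11.5 bar for each gene, and Cited1 is at 425 CPM there and at most 8.66 CPM in any later cluster.

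Which members were found in the same cells was asked within E11.5 mesenchyme. For each pair, the number of cells with a UMI of both genes was divided by the number expected if detection were independent within 10 bins of equal cell number by UMIs per cell. All 15 pairs had a ratio above 1, from 1.35 for Alx4 and Cited1 to 4.55 for Hand1 and Alx1. Cells of 1 matrix share their source, so these ratios carry no test.

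Hand1 and Alx1 formed the pair with the highest ratio. They are also the members found in the fewest cells, and a pair with a gene found in many cells has a lower ceiling, so the order of the pairs is partly set by detection. A UMI of both was found in 275 cells against 60.4 expected, a ratio of 4.55 (4.03 to 5.12). Of the 440 cells with Hand1, 62.5% also held Alx1, although Alx1 was found in only 11.7% of all mesenchymal cells. Of these 275 cells, 256 also held Hand2. Computed within each cluster and summed, the ratio was 3.46 (3.07 to 3.90). It was 5.18 (4.32 to 6.16) in cluster 1 and 2.28 (1.88 to 2.74) in cluster 4. In cluster 2 it was 7.27 (4.44 to 11.2), from 20 cells against 2.75 expected. In cluster 3 it was 7.66 (4.08 to 13.1), from 13 cells against 1.70 expected. These 2 expected numbers lie below the minimum of 10 used for the gene lists further on.

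Hand1 cells were for the most part Hand2 cells. Hand2 was found in 85.0% of the 440 Hand1 cells and Hand1 in 13.7% of the 2728 Hand2 cells, a ratio of 1.67 (1.51 to 1.85). Only 22 Hand1 cells held neither Hand2 nor Hand2os1. Alx1 cells were similar: 87.8% of 705 held Hand2, a ratio of 1.66 (1.54 to 1.80), and 21 held neither Hand2 nor Hand2os1. Hand2 and Hand2os1 shared 1936 cells against 1280 expected, a ratio of 1.51 (1.45 to 1.58).

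Alx1 and Alx4 shared 363 cells against 184 expected, a ratio of 1.97 (1.78 to 2.19). Alx4 was found in 51.5% of Alx1 cells and in 20.2% of all mesenchymal cells. With Hand1, Alx4 had a ratio of 1.98 (1.72 to 2.26), and with Hand2 of 1.48 (1.39 to 1.57).

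The pairs with Cited1 had ratios from 1.35 to 1.57 over all cells. Cited1 shared 1491 cells with Hand2 against 1086 expected, a ratio of 1.37 (1.3 to 1.44), and 706 of its 2197 cells held no Hand2 UMI. With Hand1 its ratio was 1.57 (1.39 to 1.76) over all cells, 1.16 (1.03 to 1.3) within clusters and 0.93 (0.79 to 1.09) in cluster 4, where 155 cells held both against 166 expected. With Alx1 the ratio was 1.48 over all cells and 1.19 summed within clusters. It was 1.56 (1.33 to 1.81), 1.97 (1.41 to 2.69) and 1.34 (0.79 to 2.11) in clusters 1 to 3, and 0.93 (0.81 to 1.07) in cluster 4. In that cluster 14 of the 15 pairs had ratios between 0.93 and 1.24, the pair of Hand1 and Alx1 being the exception. Hand2, Hand2os1 and Cited1 were each found in 78.4% to 80.5% of the cells of cluster 4, so pairs with them could not lie far above 1 there.

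**Figure D4:**
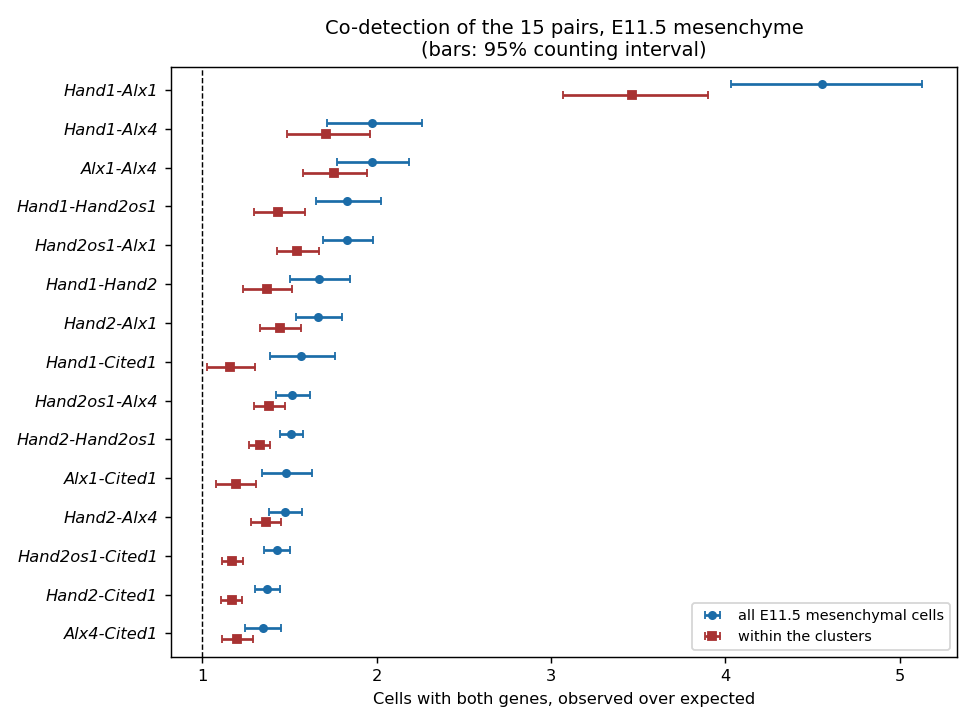
Number of E11.5 mesenchymal cells with both genes of a pair over the number expected from their detection (horizontal axis), for all cells (blue circles) and within clusters (red squares); bars are 95% counting intervals and the dashed line marks 1. Hand1 and Alx1 stand apart at 4.55 and 3.46, and the 5 pairs with Cited1 are at most 1.20 when summed over the clusters.

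The same was looked at in cells thinned to 2000 UMIs by the number of Hand2 or Cited1 UMIs. Among cells with 0, 1, 2 and 3 Hand2 UMIs, the share with Hand2os1 was 18.9%, 40.9%, 43.2% and 52.9%, and the share with Cited1 17.1%, 30.8%, 33.1% and 48.5%. The share with Hand1 was 2.32%, 7.13%, 12.0% and 10.3%. Among cells with 0, 1, 2 and 3 Cited1 UMIs, the share with Hand2 was 20.8%, 36.7%, 39.4% and 40.4%. The share with Alx1 was 5.09%, 7.38%, 4.42% and 2.25%, with a wide interval for the 89 cells with 3 Cited1 UMIs (0.27% to 7.88%). It was 4.88% in the 41 cells with 4 or more.

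**Figure D5:**
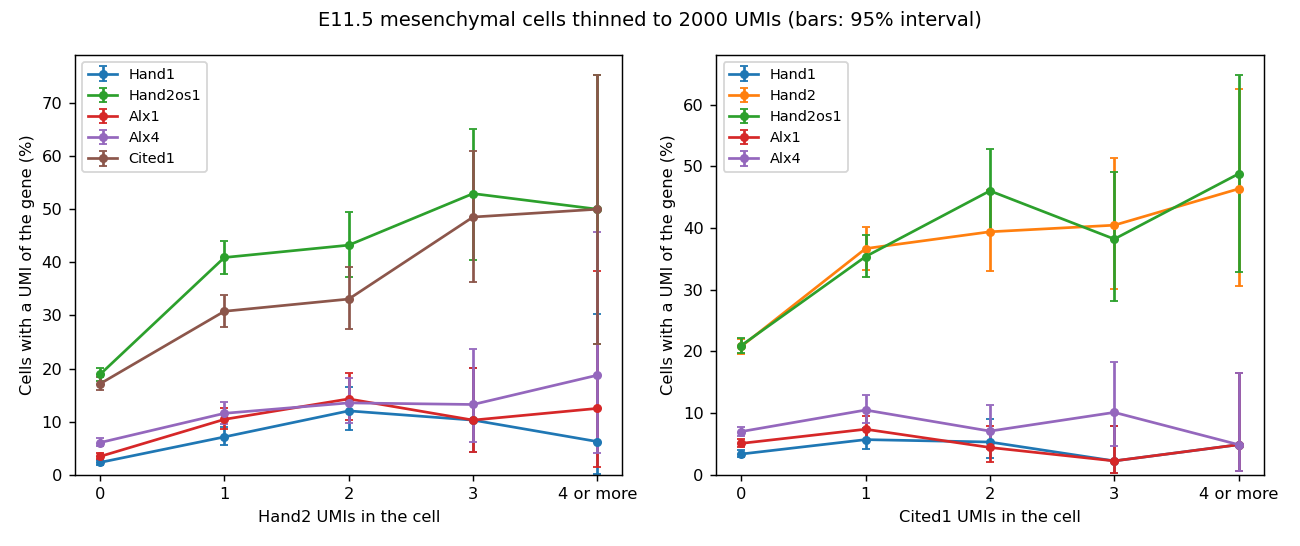
Share of E11.5 mesenchymal cells, thinned to 2000 UMIs, that hold a UMI of each gene (vertical axis, from 0) by the number of Hand2 UMIs (left) or Cited1 UMIs (right) in the cell; bars are 95% Clopper-Pearson intervals. Hand2os1 is at 18.9% with 0 Hand2 UMIs, 40.9% with 1 and 52.9% with 3, with overlapping intervals from 1 UMI on. Alx1 stays between 2.25% and 7.38% across the Cited1 groups.

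The same ratios were computed at E14.5 and E16.5. In E14.5 mesenchyme Hand2 and Hand2os1 had a ratio of 1.06 (1.01 to 1.12), Hand2 and Alx1 of 1.09 (1.03 to 1.16) and Alx1 and Alx4 of 1.10 (0.97 to 1.24). At E16.5 the same ratios were 1.02, 1.03 and 1.09, and at least 1 of Hand2 and Hand2os1 was found in 94.0% of mesenchymal cells. The 56 Hand1 cells of E14.5 had a ratio of 1.58 (1.09 to 2.21) with Alx1, from 34 cells against 21.5 expected, and of 2.15 (1.14 to 3.67) with Alx4, from 13 cells against 6.05 expected. Hand1 and Cited1 shared 4 cells there, too few for a ratio. A gene found in most cells cannot reach a high ratio, so the stages are not compared on this scale. On the CPM scale, Alx1 at E11.5 was at 55.3 CPM in mesenchymal cells with a Hand2 UMI and 6.26 CPM in those without, at E14.5 at 173 and 143 CPM and at E16.5 at 184.5 and 169 CPM. Cells with a Hand2 UMI were deeper than those without at each stage, with medians of 6855 and 4805 UMIs at E11.5.

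The lists were then set against each member in E11.5 mesenchyme, calling a ratio of at least 1.5 or at most 0.667 among genes with at least 10 expected cells. For Hand1, 3 of 7 distal factors were high, a call met by 2.98% of 10508 genes, and 8 of 12 proximal factors were low, a call met by 3.44%. Distal partners were Bmp4 (2.32), Msx2 (2.16) and Foxf1 (1.74). Genes of the proximal and maxillary list that were low with Hand1 were Dlx1 (0.18), Emx2 (0.21), Dlx2 (0.23), Lhx6 (0.31) and Barx1 (0.34). Nr2f1 (0.43), Nr2f2 (0.52) and Lhx8 (0.58) of that list were also low. Lhx8 was at 1.05 with Alx1, and at 126 CPM in the Msx1-rich group of 1199 cells. Dlx5 (0.50), Dlx6 (0.45), Dlx3 and Dlx4 of the endothelin list were low as well, and Mef2c (2.10) was high.

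For Alx1, 3 of 7 distal factors were high (background 2.5% of 11436 genes) and 8 of 12 proximal factors low (background 3.18%). Msx2 (2.16), Bmp4 (1.99) and Pax3 (1.98) were the distal partners, and Dlx1 (0.23), Emx2 (0.25) and Nr2f1 (0.39) were among the low ones. In the endothelin list Mef2c (1.54) was high, Dlx3 (0.31) and Dlx4 (0.16) were low, and Dlx5 and Dlx6, at 0.73 and 0.74, did not pass. Id4, an inhibitor of helix-loop-helix factors, and Tfap2c were high with both Hand1 (2.20 and 2.17) and Alx1 (1.70 and 1.96).

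For Alx4, Msx2 (1.54) and Pax3 (1.65) were high among 8 distal factors (background 0.927% of 12403 genes), and Dlx1 (0.54), Dlx2 (0.64), Pou3f3 (0.39) and Emx2 (0.31) were low among 12 proximal factors (background 1.54%).

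For Hand2, 0 of 8 distal factors were high (background 0.388% of 13387 genes), and 3 of 12 proximal factors, Dlx1 (0.62), Pou3f3 (0.45) and Emx2 (0.32), were low (background 1.23%). Hand2os1 had Pax3 (1.51) high among 8 distal factors (background 0.731% of 13275 genes) and Dlx1, Dlx2, Pou3f3 and Emx2 low (background 1.48%). Dlx3 and Dlx4 of the endothelin list were also low with Hand2 (0.63 and 0.49), Hand2os1, Alx1 and Alx4, and Ednrb, found in 0.383% of cells, was high with Hand2os1 (1.75). Tfap2a, an epithelial and neural crest factor found in 0.649% of these cells, belongs to the distal mandible list. It was the 1 gene of that list low with Hand2, Hand2os1, Alx4 and Cited1 (0.53 to 0.65). Few cells were involved: 13 against 22.3 expected for Hand2, and 13 against 20.7 for Hand2os1, with an interval of 0.34 to 1.08.

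For Cited1, Foxf1 (1.65) was high among 8 distal factors (background 0.9% of 13002 genes), Msx2 was at 0.996 and Pax3 at 0.81, and Pou3f3 (0.57) and Emx2 (0.47) were low (background 1.27%). In the endothelin list 0 of 10 genes passed with Cited1. Of the cell cycle genes 0 of 10 passed with any of the 6 members, with list medians from 0.987 to 1.0. Pclaf and Top2a of that list were found in 86.9% and 81.1% of these cells. Mki67, Cenpf and Birc5 were found in 65.2%, 65.0% and 62.2%. None of these genes could have been called high with any member, even if every cell with the member had held them. For them only a low call was open. Tpx2 and Ube2c likewise could not have been called high with Alx1 or Alx4.

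Genes were also ranked by this ratio among all genes found in at least 5% of E11.5 mesenchymal cells. A gene found in many cells has a lower ceiling, so the ranking partly favours genes found in few cells. The genes with the highest ratios to the members overlapped. For Hand1 they were Alx1, the Wnt inhibitor gene Dkk1 (3.91), Cavin2 (3.85), Nexn (3.35) and Syt6 (3.34). For Alx1 they were Hand1, Dkk1 (3.33), Syt6 (2.43), Camk2d (2.37) and Gadd45g (2.28). For Alx4 they were Hand1, Alx1, Dkk1 (1.85), 5033428I22Rik (1.67) and Pax3 (1.65). For Hand2 they were Hand1, Alx1, Cavin2 (1.59), Dkk1 (1.56) and Gm34030 (1.55), and for Hand2os1 Hand1, Alx1, Syt6 (1.82), Cavin2 (1.74) and 5033428I22Rik (1.67). For Cited1 they were Syt6 (1.91), Cavin2 (1.89), Ebf2 (1.79), Plagl1 (1.76) and Foxd2 (1.75), with no member among them.

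Levels on the log2 scale were correlated over the 24 clusters of at least 50 cells, which share libraries by stage. These clusters include other lineages than mesenchyme, so a high r can reflect only that both genes are low outside mesenchyme. The correlation was not computed over mesenchymal clusters alone. Hand2 followed Hand2os1 most closely among 9316 genes, with Pearson's r of 0.985, then 5033428I22Rik (0.974) and Daam2 (0.948). Hand2os1 was followed by Hand2, 5033428I22Rik (0.964) and Pde3a (0.948), and Alx1 by Gm34030 (0.965), Pcsk5 (0.957) and Col6a3 (0.952). Alx4 was followed by Dlk1 (0.953), Ddr2 (0.949) and Nfatc4 (0.939). Hand1 was followed by Cited1 (0.818), Gsc (0.798) and Osr1 (0.797), and Cited1 by Fndc3c1 (0.955), Col9a1 (0.941) and Gsc (0.925). The same measure was -0.18 between Alx1 and Cited1 and 0.209 between Alx1 and Hand1. In E11.5 mesenchymal cells Hand1 and Alx1 were the pair with the highest co-detection ratio, an order partly set by detection.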

How the data were processed

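The deposited count matrices hold UMI counts per gene and barcode that the authors made with Cell Ranger 4.0.0 on mm10, with 1 matrix per stage from Chromium 3' kit v3 libraries. A barcode was kept as a cell with 700 or more genes and no more than 20% mitochondrial UMIs. Each stage was normalised with SCTransform (sctransform 0.4.2, Seurat 5.3.0), and Leiden clusters (20 components, resolution 0.4) were made from 2000 variable genes without the members and list genes. Clusters were named from marker lists by their place between the lowest and highest cluster of the stage (at least 0.5), a rule set after the data were seen. Cartilage markers counted as mesenchymal, without which E11.5 cluster 4 would be unnamed. Doublets were not removed. The members and lists were chosen with earlier results of these data known. Named are the members, list genes past a call, the 5 genes highest in co-detection among genes found in at least 5% of E11.5 mesenchymal cells, and the 3 highest in correlation for each member. Ratios have 10 CPM added, and genes needed 20 CPM in either group. The calculations were tested on simulated data. Sequences are from RefSeq (GRCm38.p6), where 5 promoter windows matched 3 members. Of the distal mandible list, 2 genes are not reported here, and its counts and the rankings of like genes were made without them.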

Additional observations from a re-analysis of the deposited data

Results flagged for a closer look

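The barcodes left out by the filter were used in no comparison, and they still held more UMIs of each of the 6 genes than the limit of 3. They numbered 2135 for E11.5, 2101 for E14.5 and 1208 for E16.5. Over the 3 stages they held 374 UMIs of Hand2, 444 of Hand2os1, 146 of Cited1, 128 of Alx1, 82 of Alx4 and 13 of Hand1.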

How the results depend on the processing

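For the 6 stage ratios and 6 pairs followed here, 90 values under other settings stayed within the counting interval of the reported value and 36 moved outside it. For the other values, 170 stayed within and 43 moved, and 0 of all these changed direction. Every stage is 1 matrix, so leaving out a sample was not run, and no paired analysis was possible because the result comes from no test and the matrices carry no replicate numbers. Filters of at least 200 genes with no mitochondrial limit or of at least 1000 genes with at most 10% mitochondrial UMIs, resolutions of 0.2 and 0.8 and leaving out the 5% highest doublet scores moved none of these ratios (E14.5 over E11.5) and pairs. With 1 CPM added the log2 ratios were 2.23 for Alx1, -5.44 for Cited1 and -2.37 for Hand1. With lineage taken from the markers of each cell Cited1 was at -3.40. Thinned to 2000 UMIs, Alx4 was at -0.14, Cited1 at -3.78 and Hand2 at 0.50. Without E11.5 cluster 4, a setting chosen after seeing the data, they were 2.18 for Alx1, -0.11 for Alx4, -2.76 for Cited1, -0.92 for Hand1, 0.77 for Hand2 and 1.26 for Hand2os1. That cluster was the highest at E11.5 for every member, so leaving it out could only raise these stage ratios. The pair ratios, in the order Hand1 and Alx1, Hand1 and Hand2, Alx1 and Alx4, Alx1 and Cited1, Hand2 and Hand2os1, Hand2 and Cited1, were 5.32, 1.87, 2.55, 1.66, 1.66 and 1.49 without depth bins, 6.32, 2.01, 2.56, 1.68, 1.80 and 1.68 with at least 2 UMIs required, and 5.74, 2.19, 2.31, 1.18, 1.71 and 1.55 after thinning. Without cluster 4 the first 5 were 5.93, 1.87, 2.30, 1.65 and 1.67. Apart from the direction of the stage ratios without cluster 4, the cause of these shifts was not tested. Without cluster 3, led by mitochondrial genes, none of these 12 values moved. Few counts limit Hand1 and Cited1 at E14.5 and E16.5, where each rests on 18 to 63 UMIs. Mesenchymal cells had medians of 5696, 3250 and 5922 UMIs at the 3 stages in order. Few cells also limit Hand1 at thinned depth, where 3.77% of E11.5 mesenchymal cells held it.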
